A study of Homo sapiens with 4 samples.

Results

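The TNF receptor and ligand superfamily was followed in H1299 cells, a p53-null line from a human lung carcinoma, after mouse p53 was switched on. Its members were taken by symbol, as all genes whose symbols start with TNFRSF or TNFSF plus 15 family genes under other names, such as FAS, CD40, EDA and EDA2R. Of 18417 genes with a probe set (the group of array probes summarised as 1 value) of their own, 42 were members, 27 receptors and 15 ligands. The receptors comprised 8 with a death domain, 2 classed as decoy or soluble receptors and 17 others. CD40LG, TNFRSF10C, TNFRSF6B, TNFSF12, TNFSF13 and the readthrough transcript of the latter pair were not analysed here, the last 5 because they share probe sets with other genes.

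All cells were a stable H1299 line carrying a tet-on construct for mouse wild-type p53, kept in medium with 10% serum free of tetracycline. The induced group had 24 hours of 0.5 µg/mL doxycycline, the drug that turns the construct on, and the uninduced group was the same line before induction. Each group was 2 whole-transcript Affymetrix arrays, which the labels call technical replicates. The p-values below thus speak of array-to-array spread alone, and 2 arrays a group limit the precision. No array came from doxycycline-treated cells without the construct, so drug and p53 cannot be told apart. The comparison asks which transcripts differ once p53 is present.

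Members of this superfamily are cell surface receptors with cysteine-rich extracellular repeats and the trimeric ligands, mostly membrane proteins themselves, that cluster them. Receptors with a cytoplasmic death domain can recruit FADD or TRADD and, through caspase-8, start apoptosis. The others bind TRAF adaptors and signal to NF-kB and stress kinases, and decoy receptors take up ligand without passing on a full signal. FAS and the TRAIL receptor gene TNFRSF10B are textbook p53 targets, as is EDA2R, a receptor for ectodysplasin.

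The RefSeq promoter windows (from 250 bases before to 50 after a gene's start) are printed for FAS, whose first intron is known to hold a p53 element, for EDA2R, the member with the largest rise, and for TNFRSF21, a death receptor gene that fell. RefSeq held 38 windows for 28 of the 42 members. A p53 half-site, the palindromic 10-base consensus bound by a p53 dimer, was searched and reads the same on both strands. It was present in 6.63% of all 35116 windows of the same length and in 4 of the 38 member windows, 1 of them among the 10 windows of genes that changed. That window belonged to FAS, at 1 of its 3 listed starts, with the half-site GGACAAGCCC beginning at position -122 (0 is the first transcribed base). Whether this match is the known element of the first intron, seen from another start, was not checked. It should thus not be read as a second site. The palindrome CACGTG, the core of the E-box, was in 7.26% of all windows and in 5 of the 38 member windows. Among the 10 windows of genes that changed it was in 3, those of EDA2R (both listed starts) and TNFRSF21, which moved in opposite directions. Windows of 1 gene are not independent, and CD40, CD70, EDA and TNFRSF12A, which also changed, had no window. The half-site and CACGTG hits are matches of letters, and binding was not measured. Capitals mark the half-site in FAS and CACGTG in the other two.
FAS promoter window, chr10:88991181-88991480 (+ strand, GRCh38.p14): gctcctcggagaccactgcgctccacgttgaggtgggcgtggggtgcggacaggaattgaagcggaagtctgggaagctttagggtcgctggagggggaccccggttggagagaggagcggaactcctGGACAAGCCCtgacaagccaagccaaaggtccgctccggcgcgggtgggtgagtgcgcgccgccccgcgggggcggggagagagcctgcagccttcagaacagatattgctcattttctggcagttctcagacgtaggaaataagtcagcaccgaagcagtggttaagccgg
EDA2R promoter window, chrX:66639220-66639519 (- strand, GRCh38.p14): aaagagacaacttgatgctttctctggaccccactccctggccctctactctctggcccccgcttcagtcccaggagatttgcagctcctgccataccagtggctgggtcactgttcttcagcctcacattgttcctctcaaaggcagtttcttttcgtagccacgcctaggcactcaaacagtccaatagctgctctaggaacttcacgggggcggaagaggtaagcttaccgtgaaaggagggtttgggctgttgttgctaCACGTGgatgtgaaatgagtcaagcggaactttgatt
TNFRSF21 promoter window, chr6:47309856-47310155 (- strand, GRCh38.p14): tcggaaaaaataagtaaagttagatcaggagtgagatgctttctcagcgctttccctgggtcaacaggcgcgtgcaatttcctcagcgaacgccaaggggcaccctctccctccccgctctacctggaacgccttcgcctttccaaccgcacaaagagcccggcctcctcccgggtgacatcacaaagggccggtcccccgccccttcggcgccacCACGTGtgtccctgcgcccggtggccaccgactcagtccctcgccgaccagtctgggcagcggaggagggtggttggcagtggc

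As a check of induction, the p53 targets CDKN1A and MDM2 were 10.8-fold and 7.39-fold higher on the induced arrays. Across genes the 2 arrays of a group correlated at r = 0.997 (uninduced) and 0.995 (induced), against 0.917 to 0.921 between groups (genes are not independent replicates). The keratins KRT8 and KRT18, epithelial genes chosen for this check after their values were seen, lay between 9.41 and 11.17 log2 units on the 4 arrays, and KRT8 rose 2.21-fold (limma adjusted p = 0.000241) while KRT18 did not pass the test. Of 18 blood, fibroblast and endothelial markers measured, 1 (CD3E) was higher, 1 (CD3D) lower and 16 did not pass the test, and their levels ran from 3.42 to 7.99 log2 units. No detection call was used, so a value in that range does not by itself show that a gene was expressed. Of the 14 members that changed, 7 stayed above 7.99 on all 4 arrays and 7 did not. In bulk RNA a change in the share of expressing cells and a change per cell cannot be told apart.

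Of the 42 members, 10 rose and 4 fell after induction (limma's moderated test, Benjamini-Hochberg adjusted p below 0.05 over all genes), which is 33.3% of them against 45.1% of all 18417 genes. By direction the backgrounds were 20.6% of all genes higher and 24.6% lower, an order that turned with the scaling (4372 genes higher and 4182 lower with each array centred, 4277 and 4237 after quantile normalization again). At 2-fold or more, 5 members rose and 3 fell, where 6.48% of all genes rose and 6.77% fell that far. The median log2 difference of the members was 0.058. Their arrays did not overlap between groups for 25 members, which is also true of 66.8% of all genes. The number of genes called dropped from 8311 to 5043 without uninduced array 1 and to 4959 without uninduced array 2, and the number of members called to 11 in each case.

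**Figure D1:**
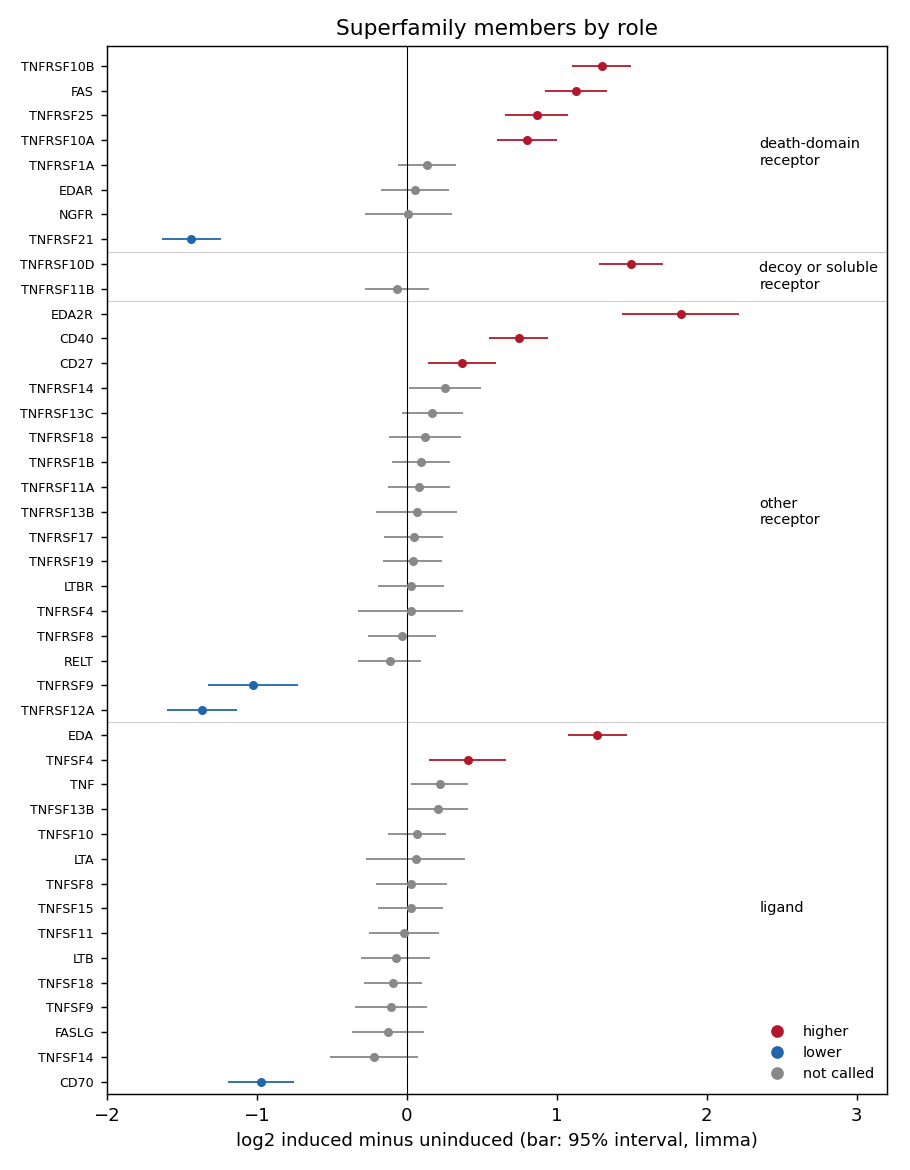
Log2 difference, induced minus uninduced, for the 42 members (points) with limma's 95% interval (bars), grouped by role; red marks members called higher, blue lower and grey not called at an adjusted p under 0.05. Called members lie at 0.37 or above and at -0.97 or below, and the 28 others between -0.22 and 0.26.

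Death-domain receptors changed in both directions. Of 8 measured, FAS, TNFRSF10A, TNFRSF10B and TNFRSF25 rose, TNFRSF21 fell, and TNFRSF1A, NGFR and EDAR did not pass the test. TNFRSF10B, the TRAIL receptor known as a p53-induced killer gene, read 9.53 and 9.56 log2 units on the uninduced arrays and 10.81 and 10.88 on the induced ones. It rose 2.46-fold (log2 difference 1.30, SE 0.083, limma adjusted p = 1.31e-05). The groups lay far apart relative to the spread of either pair.

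FAS, the receptor for Fas ligand and the gene of the first promoter window above, read 8.38 and 8.35 uninduced and 9.43 and 9.56 induced. It rose 2.19-fold (log2 difference 1.13, SE 0.088, limma adjusted p = 3.42e-05). Both induced arrays lay above both uninduced ones. TNFRSF10A, the other TRAIL receptor with a complete death domain, read 8.85 and 8.94 uninduced and 9.68 and 9.71 induced, a 1.74-fold rise (limma adjusted p = 0.000159). TNFRSF25, the death receptor for the ligand TNFSF15, read 9.13 and 9.04 uninduced and 10.00 and 9.90 induced, a 1.82-fold rise (limma adjusted p = 0.000132). These 4 rises were between 0.80 and 1.30 on the log2 scale.

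TNFRSF21, which encodes death receptor 6, went the other way. It read 8.68 and 8.70 on the uninduced arrays and 7.21 and 7.30 on the induced ones, a fall by 1.44 on the log2 scale (SE 0.084, limma adjusted p = 8.52e-06), or 2.70-fold. Both induced arrays lay well below the uninduced pair. TNFRSF1A, the main TNF receptor and the route from TNF to TRADD, read 10.23 and 10.15 uninduced and 10.32 and 10.33 induced. Its log2 difference of 0.14 had a 95% interval from -0.061 to 0.33 (limma adjusted p = 0.248), so a doubling of TNFRSF1A lay outside it. The neurotrophin receptor gene NGFR and the ectodysplasin receptor gene EDAR had log2 differences of 0.010 and 0.055, with overlapping arrays. NGFR and EDAR lay within the range of the lineage markers on all arrays. An unchanged gene and an undetected one cannot be told apart there.

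Set beside the other classes, death-domain receptors passed the test in 5 of 8 cases (62.5%), other receptors in 5 of 17 (29.4%), decoy or soluble receptors in 1 of 2 and ligands in 3 of 15 (20.0%), with 45.1% of all genes as the background. Median log2 differences were 0.47 for death-domain receptors, 0.065 for other receptors and 0.025 for ligands. The death-domain median was 0.80 when dim probe sets were left out, which removes EDAR from the class. That filter raised the share of all genes called to 62.4%. Median levels on uninduced array 1 were 8.765 for death-domain receptors, 7.70 for other receptors, 6.34 for ligands and 7.74 for all genes. Shares of classes that differ in level are thus not directly comparable. The classes were not tested against each other, and 8 genes give a coarse percentage.

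The TRAIL receptor genes lie side by side on chromosome 8, with no other coding gene between TNFRSF10B, TNFRSF10C, TNFRSF10D and TNFRSF10A in RefSeq's gene order. All 3 that were measured rose. TNFRSF10D, a decoy receptor with a truncated death domain that binds TRAIL without triggering death, read 9.40 and 9.25 uninduced and 10.81 and 10.83 induced. Its 2.82-fold rise (log2 difference 1.495, SE 0.090, limma adjusted p = 9.67e-06) had a 95% interval from 1.28 to 1.71, next to 1.10 to 1.495 for TNFRSF10B and 0.60 to 0.998 for TNFRSF10A. The decoy and both death receptors thus rose together. These receptors are related in sequence, and hybridisation shared between them was not tested. TNFSF10, the gene of their ligand TRAIL, read 4.12 and 4.19 uninduced and 4.22 and 4.23 induced (limma adjusted p = 0.565). TNFRSF11B, osteoprotegerin, a secreted receptor that binds TRAIL and RANK ligand, had a log2 difference of -0.065 (limma adjusted p = 0.632), with overlapping arrays. TNFRSF11B lay within the range of the lineage markers on all arrays, so it may have been undetected.

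**Figure D2:**
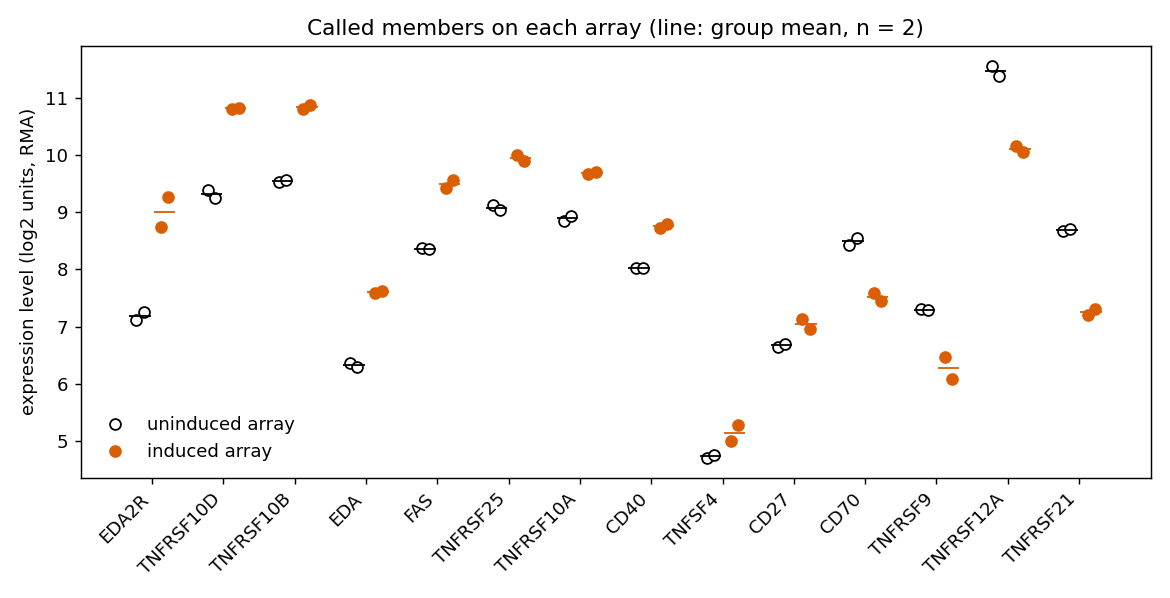
Expression levels in log2 units (RMA) of the 14 called members on the 2 uninduced (open) and 2 induced (filled) arrays, with a line at each group mean, ordered by difference. EDA2R shows the widest gap between its induced arrays, at 8.74 and 9.27, and no member shown has overlapping groups. Heights should be compared within a gene, since probe sets differ in their response.

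Among the 17 receptors without a death domain that are not decoys, EDA2R, CD40 and CD27 rose and TNFRSF12A and TNFRSF9 fell. EDA2R, which binds the A2 form of ectodysplasin and signals through TRAF proteins, had the largest difference of all 42 members. It read 7.11 and 7.25 uninduced and 8.74 and 9.27 induced, a 3.54-fold rise (log2 difference 1.83, SE 0.17, limma adjusted p = 7.39e-05). The 2 induced arrays differed by more than those of any other member, and the log2 difference ranged from 1.56 to 2.09 over the alternatives run. Both induced arrays still lay well above the uninduced pair.

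CD40, the costimulatory receptor of B cells that some carcinoma lines also express, read 8.02 on both uninduced arrays and 8.73 and 8.80 on the induced ones. It rose 1.68-fold (log2 difference 0.75, SE 0.083, limma adjusted p = 0.000209). The uninduced level of CD40 lay only just above the highest lineage marker level, 7.99, so its fold may depend on background too. CD27, a lymphocyte costimulatory receptor, read 6.65 and 6.70 uninduced and 7.14 and 6.95 induced, a 1.29-fold rise (limma adjusted p = 0.0152). The CD27 call was not stable: its adjusted p was 0.172 without uninduced array 1, 0.137 without uninduced array 2 and 0.0653 without induced array 1.

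TNFRSF12A, the receptor for TWEAK and a growth-factor-inducible gene, read 11.57 and 11.38 uninduced and 10.17 and 10.05 induced. It fell by 1.37 on the log2 scale (SE 0.10, limma adjusted p = 2.59e-05), or 2.58-fold. TNFRSF9, the costimulatory receptor 4-1BB, read 7.30 and 7.29 uninduced and 6.46 and 6.08 induced. It fell by 1.03 (SE 0.13, limma adjusted p = 0.000395), or 2.04-fold, and its adjusted p became 0.0525 without uninduced array 1 and 0.0523 without uninduced array 2. In both genes the induced pair lay wholly below the uninduced pair.

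The remaining 12 receptors of this class had log2 differences from -0.12 to 0.26 and limma adjusted p-values from 0.0804 to 0.918. They include the herpesvirus entry mediator TNFRSF14, which had the largest difference of the 12 (0.26, adjusted p = 0.0804 in limma's test), the second TNF receptor TNFRSF1B, the lymphotoxin receptor LTBR, the RANK gene TNFRSF11A, the receptors TNFRSF13B, TNFRSF13C and TNFRSF17, best known from B cells, TNFRSF4, TNFRSF8 and TNFRSF18, best known from T cells, TNFRSF19 and RELT. Their 95% intervals stayed between -0.33 and 0.49, within less than a 2-fold change of the array signal either way. TNFRSF14, TNFRSF1B, LTBR, TNFRSF11A, TNFRSF17, TNFRSF19 and RELT lay within the range of the lineage markers on all arrays. Background can compress differences there, so these intervals do not bound the change of the transcripts. TNFRSF14 passed the test after quantile normalization again, after centring each array and without dim probe sets.

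Ligand genes mostly did not pass the test: of 15 measured, EDA and TNFSF4 rose, CD70 fell and 12 were not called. EDA, which encodes ectodysplasin, the ligand of EDAR and EDA2R in skin appendage development, read 6.37 and 6.29 uninduced and 7.58 and 7.62 induced. It rose 2.41-fold (log2 difference 1.27, SE 0.084, limma adjusted p = 1.55e-05). The pairs of arrays were tight and well apart. All of its values lay within the range of the lineage markers above, so the fold depends on the background level of the array. All values of CD27, TNFRSF9 and TNFSF4 lay within that range too. So did those of EDA2R on the uninduced arrays and of CD70 and TNFRSF21 on the induced ones.

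CD70, the ligand of CD27, read 8.43 and 8.55 uninduced and 7.59 and 7.45 induced, a fall by 0.97 (SE 0.094, limma adjusted p = 0.000103), or 1.96-fold. TNFSF4, the OX40 ligand, read 4.70 and 4.76 uninduced and 5.0 and 5.27 induced, a 1.32-fold rise (limma adjusted p = 0.0178). That call ended with an adjusted p of 0.212 without uninduced array 1, 0.168 without uninduced array 2 and 0.0711 without induced array 2. CD70 stands between TNFSF9 and TNFSF14 on chromosome 19, and those neighbours had log2 differences of -0.11 (adjusted p = 0.479) and -0.22 (adjusted p = 0.209) in limma's test. TNFSF14 passed as lower without induced array 1 (adjusted p = 0.033).

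The 12 uncalled ligands lay between -0.22 and 0.22 on the log2 scale. TNF, the founding cytokine, read 6.34 and 6.36 uninduced and 6.56 and 6.58 induced, a log2 difference of 0.22 that missed the threshold (limma adjusted p = 0.0623) and passed it after quantile normalization again and after centring. Its arrays did not overlap. The lymphotoxin genes LTA and LTB, next to TNF on chromosome 6, had differences of 0.060 and -0.075. The 3 probe sets of TNF had the same values on every array, as did 3 of the 4 of LTB, so they are not separate measurements. FASLG, the ligand of FAS, read 6.05 and 5.88 uninduced and 5.92 and 5.76 induced (log2 difference -0.13, limma adjusted p = 0.385).

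Known partners were set side by side. Of 25 ligand and receptor pairs with both genes measured, both genes passed the test in 2, the receptor alone in 6, the ligand alone in 2 and neither in 15. The ligand was called in 4 of the 25 and the receptor in 8, where 45.1% of all genes were called. Pairs that share a gene are not independent. In EDA and EDA2R both genes rose, while the other receptor of ectodysplasin, EDAR, did not pass the test. EDAR lay within the range of the lineage markers on all arrays, so it may have been undetected. EDA was read as a whole gene, and the A2 form that EDA2R binds was not measured apart. In CD70 and CD27 the ligand fell and the receptor rose. The receptor-alone pairs were FAS with FASLG, the 3 TRAIL receptors with TNFSF10, TNFRSF25 with TNFSF15 and TNFRSF9 with TNFSF9. FASLG, TNFSF10 and TNFSF15 lay within the range of the lineage markers on all arrays, and TNFSF9 lay above it. Within that range an unchanged ligand and an undetected one cannot be told apart. CD40 and TNFRSF12A have no entry here because CD40LG and TNFSF12 were not analysed.

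**Figure D3:**
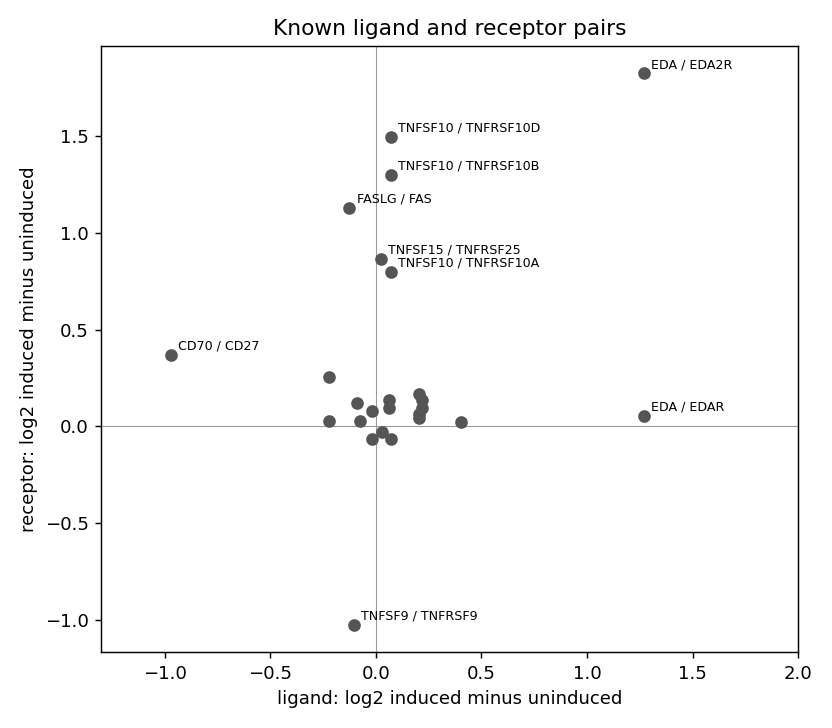
Log2 difference (induced minus uninduced) of the ligand gene on the horizontal axis and of the receptor gene on the vertical axis for 25 known pairs, labelled where either exceeds 0.5 in size. EDA with EDA2R stands alone at the upper right, and the pairs of TNFSF10 lie near 0 on the ligand axis (0.070).

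Genes that carry or regulate the receptors' signals, or belong to related death complexes, were taken in 4 lists, of which 59 of 66 genes were measured. A place on a list does not show that a gene acted through these receptors here. In all, 24 rose and 18 fell, 71.2% against the background of 45.1% of all genes. Their median level on uninduced array 1 was 8.8, against 7.74 for all genes. Without dim probe sets 84.9% of the listed genes tested were called, against 62.4% of all genes. Shares of these lists and of all genes are thus not directly comparable. Without uninduced array 1 the 42 calls became 24 (40.7%, where 27.4% of all genes were called), and without uninduced array 2 they became 27 (45.8%, where 26.9% were called). Among 13 adaptors and death complex genes, 5 rose and 2 fell, with a median log2 difference of 0.19. PIDD1, a death-domain scaffold protein, rose by 2.53, BID, the BH3 protein cleaved by caspase-8, by 1.21, CFLAR, the FLIP inhibitor of caspase-8 activation, by 1.08 and the FAS-binding factor FAF1 by 1.06. FADD, the adaptor that links FAS and TRAIL receptors to caspase-8, read 8.88 ± 0.085 uninduced and 8.50 ± 0.15 induced (SD, n = 2 arrays each) and fell by 0.39 (limma adjusted p = 0.0174). The FADD call ended without uninduced array 1 (0.208), uninduced array 2 (0.12) or induced array 2 (0.109). CASP8 had a log2 difference of -0.12 (limma adjusted p = 0.315) and TRADD one of 0.33 (limma adjusted p = 0.0514). TRADD passed in 6 of the 10 alternatives.

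Of 18 TRAF, IAP and ubiquitin genes, 9 rose and 5 fell, with a median of 0.14, where 20.6% of all genes rose and 24.6% fell. Just 3 were called higher and 4 lower without uninduced array 1, and 5 and 4 without uninduced array 2. TRAF4 rose by 1.35 on the log2 scale, the deubiquitinase gene CYLD by 1.12 and TNIP1, a partner of the NF-kB inhibitor A20, by 1.06, while BIRC2, the ubiquitin ligase cIAP1 of the TNF receptor complex, fell by 1.42 (SE 0.11, limma adjusted p = 3.86e-05). CYLD's adjusted p was 0.0504 without uninduced array 1 and 0.0625 without induced array 2. Of 20 kinase and NF-kB genes, 6 rose and 9 fell, with a median of -0.14. Without uninduced array 1, 4 were called higher and 4 lower, and without uninduced array 2, 4 and 5. TAB3, an adaptor of the kinase TAK1, rose by 1.495 and IKBKB, the catalytic kinase of the canonical pathway, by 1.38. MAP3K5, the stress kinase ASK1, fell by 1.60 and NFKB2, the precursor of the noncanonical NF-kB subunit, fell by 1.18.

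Of 8 genes of shedding proteases and other regulators, 4 rose and 2 fell, with a median of 0.32, where 20.6% of all genes rose and 24.6% fell. Fewer of them were called when either uninduced array was left out, as was so for all genes. The inactive rhomboid genes RHBDF1 and RHBDF2, which escort the TNF-shedding protease ADAM17 to the cell surface, rose by 1.73 and 1.64 on the log2 scale. TMBIM1, a membrane protein that lowers FAS at the cell surface, rose by 1.27. The protease gene ADAM10 fell by 0.89 (limma adjusted p = 7.81e-05).

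**Figure D4:**
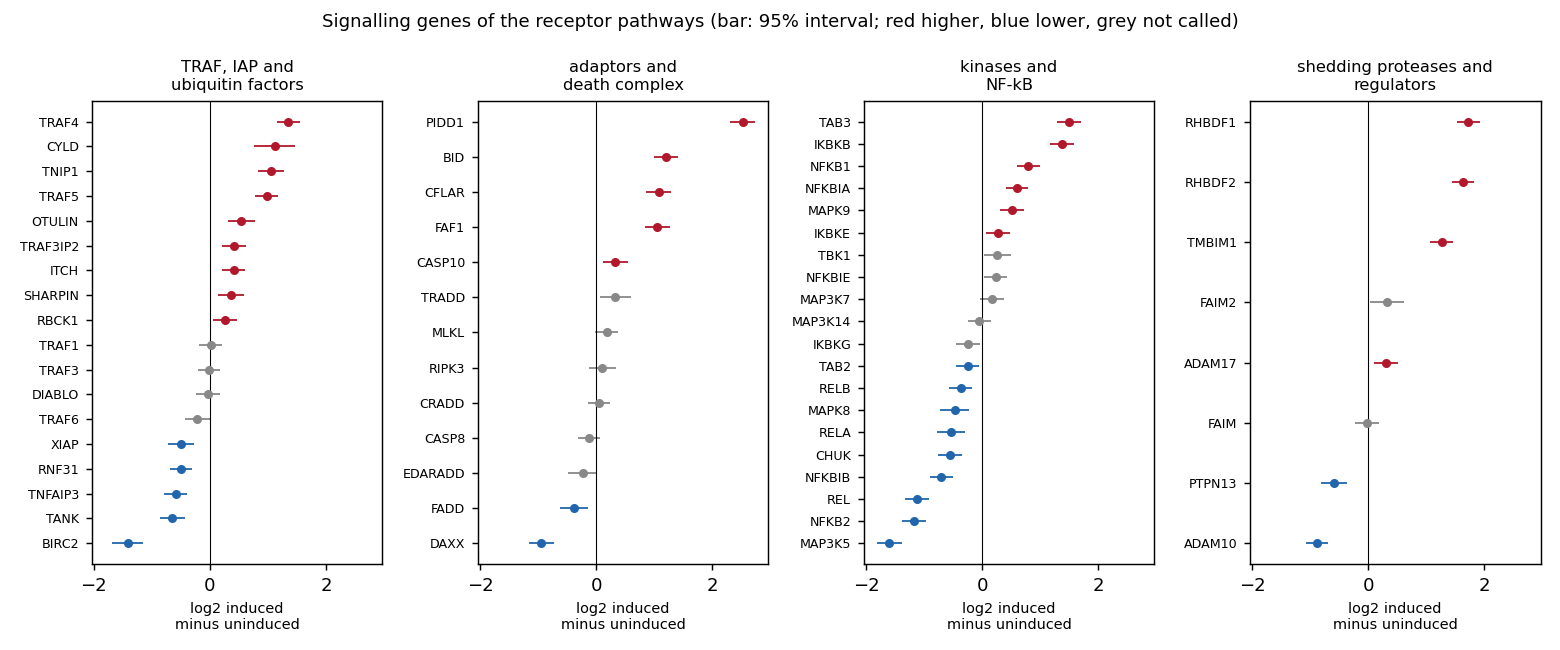
Log2 difference (induced minus uninduced) with limma's 95% interval for the 59 measured signalling genes in 4 panels, one for each list; red marks genes called higher, blue lower and grey not called. PIDD1 is farthest to the right at 2.53 and MAP3K5 farthest to the left at -1.60.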

How the data were processed

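Per the submitters' processing notes, the authors made the deposited log2 values with Affymetrix Expression Console and RMA, which corrects background, equalises the arrays' distributions and summarises each probe set, with versions, settings and genome build not given in the sources used here. A shift of all transcripts would be hidden, and differences of dim genes are compressed. The table held 33297 probe sets, 19460 with 1 gene symbol in the platform annotation; the brightest stood for each gene. Sample titles gave the groups. limma 3.58.1 in R 4.3.3 (lmFit, eBayes) compared induced with uninduced arrays, two-sided, 7.20 total degrees of freedom, on values as deposited; a gene was called at a Benjamini-Hochberg adjusted p under 0.05 over 18417 genes. The fit's code was run on data simulated from limma's own model with few changed genes, which checks the code and not the calls made here. Any member could be named, the 4 called genes with the largest difference of each pathway list, and FADD, CASP8, TRADD and CFLAR. Members, lists and alternatives were chosen with earlier results of these data known. Known pairs and promoter motifs were added after the values were seen. Alternatives were other scalings, filters, gene summaries, priors, a replicate block and leaving out each array. Figures used matplotlib 3.10.9.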

Additional observations from a re-analysis of the deposited data

Results flagged for a closer look

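Signals appeared in probe sets that the comparison left out because each is assigned to a member and to another gene. Of 3 such probe sets, 1 was higher on the induced arrays by 0.615 log2 units (SE 0.096, adjusted p = 0.00724 in limma's test over all rows), at 6.44 and 6.4 uninduced and 6.95 and 7.12 induced, and 1 was lower, with a log2 difference of -0.33 (adjusted p = 0.0313). Which of the assigned genes changed cannot be told apart. With 2 arrays a group, outlying arrays could not be sought.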

How the results depend on the processing

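No call reversed in the 10 alternatives. Of the 14 called members, 11 kept the call in every alternative run; CD27, TNFRSF9 and TNFSF4 did not, and 5 uncalled members (TNF, TNFRSF13C, TNFRSF14, TNFSF13B and TNFSF14) passed in at least 1. The replicate block, whose numbers the labels tie to nothing shared, gave 13 called members, with CD27 the call lost (adjusted p = 0.0599 in limma's test), and 7820 called genes, with a correlation of 0.22 between same-numbered deviations. Leaving out each array in turn gave 4959 to 6904 called genes and 11 to 14 called members. The death-domain median was 0.52 with each array centred and 0.80 without dim probe sets, where 28 members were tested. Centring made 17 members pass, 13 of them higher. With 2 arrays a group and no detection call, small differences of dim genes are limited by background.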
